A study of Mus musculus with 6 samples.

Results

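Imprinted growth genes were examined in primary mouse cultures with and without Edf1. The genes are H19, Igf2, Meg3, Dlk1, Cdkn1c, Peg3, Mest, Plagl1, Grb10 and Ndn, found by symbol in a table of read counts for 22851 genes. Of these 10 genes, 8 had a row, and H19 and Meg3 are not analysed here. All 8 passed the filter on low counts.

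The study asked which genes depend on Edf1, whose protein is known to assist transcription factors and to bind ribosomes that have collided, while multiciliated ependymal cells form. Radial glial cells, the neural progenitors next to the brain ventricles, were isolated from the brains of C57BL/6J mice aged P0 to P3 and grown in medium with 10% FBS. They were then kept without FBS for 6 days to become ependymal cells. The wild-type (WT) group and the Edf1 knockout group, from mice made with CRISPR/Cas9, had 3 libraries each, which the series calls biological replicates. The labels name no Cre driver and do not say how many animals gave each culture, so p-values measure the spread between these libraries.

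Imprinted genes are expressed mainly from the copy inherited from a single parent, because methylation set in the egg or sperm at a control region is kept through later divisions. Many of them act on growth before birth: as a rule, genes expressed from the paternal copy favour growth and genes expressed from the maternal copy restrain it. In the brain several also mark progenitors or neurons. The counts do not separate the parental copies, so every value below is the sum over both.

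Total counts ranged from 13071766 to 28087006 per library. Edf1 itself had 80.1 to 85.8 CPM (counts scaled to library size) in WT against 9.83 to 13.2 in knockout libraries, which matches the labels. WT replicate 2 had the lowest total and lay apart from WT replicates 1 and 3 on the second principal component, which held 16.1% of the variance. It also lay apart on the first, which separated the genotypes and held 60.7%. Its value there was -32.5, against -18.1 for WT replicates 1 and 3. All 12 markers of multiciliated ependymal cells were tested, and all 12 were lower in the knockout; their summed level was 2775 to 2921 CPM in WT and 1658 to 1808 CPM in the knockout. Summed markers of radial glia and astrocytes were at 10922 to 11306 CPM in WT and 11914 to 12410 CPM in the knockout. Markers from both lists were thus present, and the second list does not separate radial glia from astrocytes. Vim alone made up 6016 to 6648 CPM in WT and 6750 to 7009 CPM in the knockout. In the test described below, 3 of the 13 markers of radial glia and astrocytes were higher, 2 were lower and 8 did not pass. Beside these counts and that of the ependymal markers, 12.7% of all tested genes were called higher and 14.2% lower.

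The promoter sequences of 7 of the 8 genes are listed by RefSeq (GRCm38.p6), in 13 windows of 300 bases that run from 250 bases before to 50 bases after a start site. Shown here are 3 genes that were higher in the knockout, Mest, Plagl1 and Grb10, and Dlk1, the gene that was lower, each 5′ to 3′ on the gene's own strand. Capitals mark the hexamer TGCCGC on either strand, which in methylated form is the core recognised by Zfp57, the zinc finger protein that protects methylation at imprinted control regions. The windows are chr6:30737800-30738099 (plus strand) for Mest, chr10:13090582-13090881 (plus) for Plagl1, chr11:12037371-12037670 (minus) for Grb10 and chr12:109452573-109452872 (plus) for Dlk1.
Mest: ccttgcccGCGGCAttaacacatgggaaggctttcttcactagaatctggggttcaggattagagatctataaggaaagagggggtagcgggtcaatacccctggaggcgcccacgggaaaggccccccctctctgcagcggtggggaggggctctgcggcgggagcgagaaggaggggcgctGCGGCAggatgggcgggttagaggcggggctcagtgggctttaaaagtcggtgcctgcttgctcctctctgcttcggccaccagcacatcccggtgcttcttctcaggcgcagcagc
Plagl1: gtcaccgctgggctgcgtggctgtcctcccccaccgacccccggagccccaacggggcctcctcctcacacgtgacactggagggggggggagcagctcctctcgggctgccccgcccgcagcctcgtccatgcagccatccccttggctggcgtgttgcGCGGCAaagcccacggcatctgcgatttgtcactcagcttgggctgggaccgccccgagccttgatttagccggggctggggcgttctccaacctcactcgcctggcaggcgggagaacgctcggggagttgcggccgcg
Grb10: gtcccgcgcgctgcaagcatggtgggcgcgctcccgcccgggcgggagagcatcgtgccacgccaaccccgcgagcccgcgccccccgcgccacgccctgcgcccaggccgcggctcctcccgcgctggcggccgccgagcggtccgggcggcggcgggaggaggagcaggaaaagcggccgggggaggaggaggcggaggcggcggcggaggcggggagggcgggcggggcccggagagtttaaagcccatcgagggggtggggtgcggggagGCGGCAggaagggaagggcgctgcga
Dlk1: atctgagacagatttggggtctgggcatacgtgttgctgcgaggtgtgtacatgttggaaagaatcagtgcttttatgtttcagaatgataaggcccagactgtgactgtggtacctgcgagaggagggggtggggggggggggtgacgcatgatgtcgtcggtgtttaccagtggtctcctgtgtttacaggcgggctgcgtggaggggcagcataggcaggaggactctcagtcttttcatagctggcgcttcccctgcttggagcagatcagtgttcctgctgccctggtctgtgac

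The hexamer was present at 2 places in the Mest window and at 1 place each in those of Plagl1 and Grb10, and these letters are not in the Dlk1 window. Over all windows of the 7 genes it was found in 5 of 13, belonging to 4 genes, and 2 of those 5 are Mest windows that overlap almost wholly. The windows shown do not stand for the rest: the windows of Peg3 and Ndn, which were also higher in the knockout, do not hold these letters, nor do the other Mest window and the other Grb10 window, and 1 of the 4 Igf2 windows does. Of 32851 mouse promoter windows of this length, 11.6% hold it. The core GCCATNTT bound by YY1 was in 0 of the 13 windows and in 6.05% of all windows. CpG dinucleotides numbered 45 in the Grb10 window, 26 in the Plagl1 window, 17 in the Mest window and 9 in the Dlk1 window, against a median of 7 over all windows. A match of letters describes the window and does not show a bound site.

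Most of the measured genes were higher without Edf1. In edgeR's quasi-likelihood test with Benjamini-Hochberg adjustment over 14243 genes, Cdkn1c, Grb10, Peg3, Mest, Plagl1 and Ndn rose, Dlk1 fell and Igf2 did not pass the threshold of 0.05. That makes 6 of 8 called higher and 1 of 8 called lower, where 12.7% of all tested genes were called higher and 14.2% lower. The CPM ranges of the genotypes did not overlap for the same 6 genes upward and for Dlk1 downward, beside 21.3% and 22.1% of all tested genes (43.3% in either direction). The median log2 fold change of the 8 genes was 0.55, and that of all tested genes was 0.0029. Since the list was chosen with results of these data known, these counts describe it and do not test it. In bulk cultures, fewer cells of a type and less RNA per cell cannot be told apart.

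**Figure D1:**
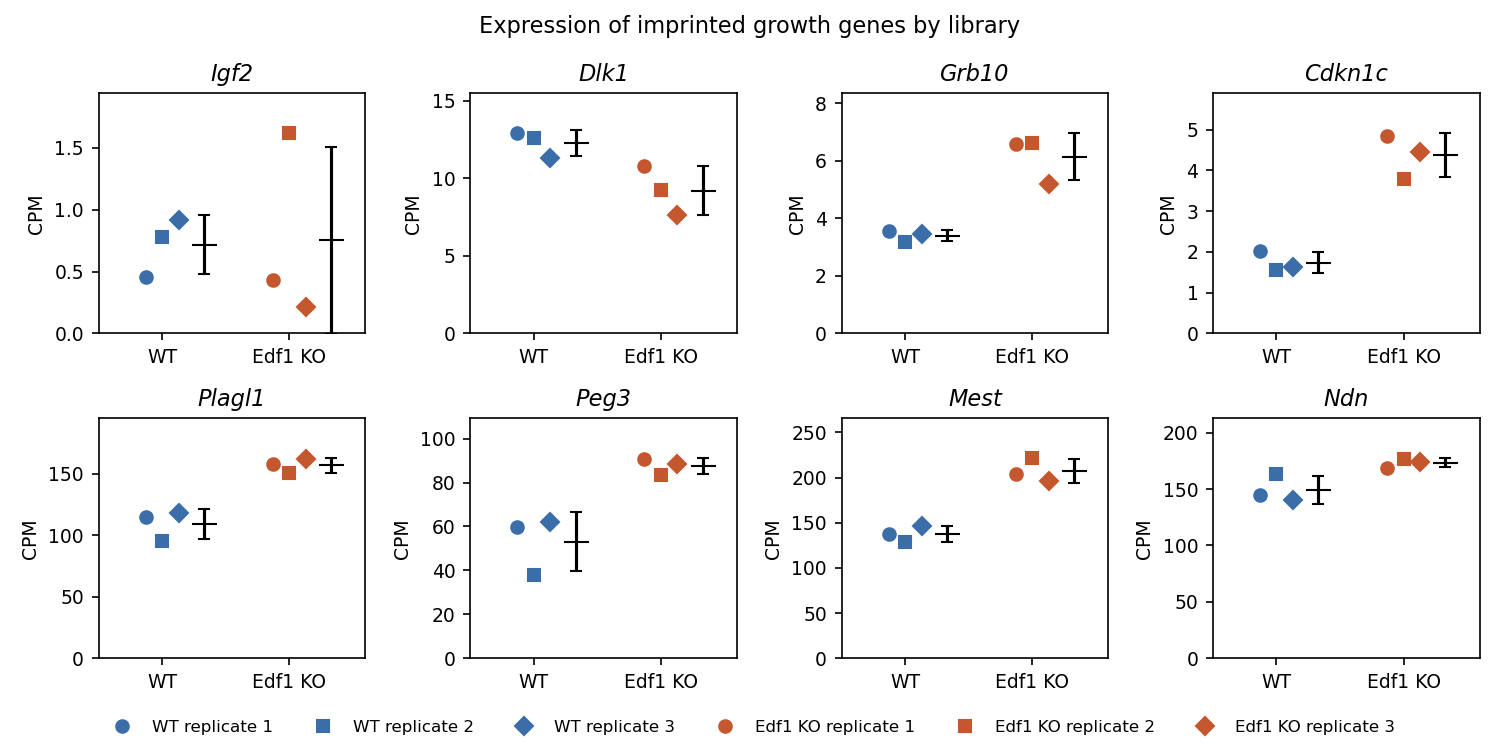
Expression in CPM (counts scaled to library size, linear axes from 0) of the 8 imprinted growth genes in each of 3 WT and 3 Edf1 KO libraries; the bar beside each group is the mean with its SD. The 6 genes called higher have all knockout points above all WT points, Dlk1 has them below, and the Igf2 groups overlap.

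The growth ligand came first. Igf2, on chromosome 7 (GRCm38, 142650766 to 142666816, minus strand), encodes insulin-like growth factor 2, a fetal growth hormone expressed from the paternal copy. It was close to the limit of detection, with raw counts of 12, 10 and 17 in WT replicates 1, 2 and 3 and of 7, 29 and 6 in the knockout replicates. In CPM the WT libraries had 0.452, 0.777 and 0.919 and the knockout libraries 0.430, 1.61 and 0.212. The highest and the lowest value both came from the knockout, and the groups overlapped. Its log2 fold change was 0.02 (SE 0.63; adjusted p 0.982 by edgeR), with a 95% interval from -1.33 to 1.38, so changes of more than 2-fold either way lie within the interval. The sign of the Igf2 estimate was not stable. Without knockout replicate 2 the value was -1.19 (adjusted p 0.161 by edgeR), and without WT replicate 1 it was -0.29. Exons annotated to another gene that runs through Igf2 cover 62.8% of its exon bases on the same strand, so its counts are uncertain as well.

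Knockout replicate 2 also had the highest CPM of the 3 knockout libraries for 8 of the 10 tested markers of meningeal fibroblasts, cells known for high Igf2. Among them is Dcn (decorin, a matrix proteoglycan), named here after its values were seen. It had 19.8, 25.3 and 13.98 CPM in knockout replicates 1, 2 and 3 and 7.53, 8.23 and 8.81 CPM in WT. Ogn, the most abundant of the 10, was instead lowest in knockout replicate 2. It had 334, 323 and 373 CPM in knockout replicates 1, 2 and 3 and 251, 248 and 270 CPM in WT. Of the 8, Twist1 (4.07 CPM, against 4.06 in knockout replicate 1) and Pdgfra (12.3 against 12.1) were near ties. In knockout replicates 1 and 3 Dcn was also above every WT library, while Igf2, at 0.430 and 0.212 CPM, was below every WT library. How often tested genes as a whole were highest in knockout replicate 2 was not computed. The part of meningeal fibroblasts in the Igf2 values was not tested.

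Dlk1, on chromosome 12 (109452823 to 109463336, plus strand), encodes a transmembrane protein related to Notch ligands that restrains differentiation and is expressed from the paternal copy. WT libraries had 12.9, 12.6 and 11.3 CPM, and knockout libraries 10.8, 9.24 and 7.61 CPM. Every knockout library lay under every WT library, though the gap between the nearest libraries was small. The mean fell from 12.3 ± 0.842 to 9.20 ± 1.57 CPM (SD, n = 3 each), with log2 fold change -0.43 (SE 0.13; adjusted p 0.0275 by edgeR). This call did not hold when WT replicate 1 was left out (-0.39, adjusted p 0.0979 by edgeR), nor without either of knockout replicates 2 (-0.45, 0.0701) and 3 (-0.29, 0.142). Among its neighbours in the cluster, Rtl1 and Dio3 had too few counts to be tested, with at most 26 and 9 counts in a library. Rian and Mirg are not analysed here.

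Both measured genes known for expression from the maternal copy and for restraining growth rose, with the highest estimates of the 8. Their 95% intervals, 0.86 to 1.73 for Cdkn1c and 0.48 to 1.18 for Grb10, both overlap that of Peg3 (0.42 to 0.99). The Grb10 interval also overlaps those of Mest and Plagl1. Cdkn1c, on chromosome 7 (143458339 to 143461050, minus strand), encodes p57, an inhibitor of cyclin-dependent kinases that takes progenitors out of the cell cycle. CPM values were 2.03, 1.55 and 1.62 in WT libraries against 4.85, 3.79 and 4.46 in knockout libraries. The lowest knockout library was thus well above the highest WT library. The mean rose from 1.74 ± 0.260 to 4.37 ± 0.540 CPM (SD, n = 3 each), 2.46-fold on the fitted scale (log2 fold change 1.30, SE 0.20; adjusted p 4.58e-04 by edgeR). That change was larger in size than 98.6% of those of all tested genes. It rests on 20 to 54 raw counts per WT library and 68 to 126 per knockout library. An annotated antisense gene overlaps 30.7% of its exon bases, and the sources used here do not state whether strand was used in counting.

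Grb10, on chromosome 11 (11930508 to 12038683, minus strand), encodes an adaptor that binds the insulin and IGF1 receptors and dampens their signal. In most tissues it is expressed from the maternal copy, and in neurons from the paternal copy. Its level was 3.54, 3.18 and 3.46 CPM in WT libraries, and knockout libraries had 6.58, 6.63 and 5.20 CPM. The WT libraries lay close together, and knockout replicate 3 was the lowest of the knockout libraries but still above them. The mean rose from 3.39 ± 0.186 to 6.13 ± 0.808 CPM, a 1.77-fold rise (log2 fold change 0.83, SE 0.16; adjusted p 0.00234 by edgeR).

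The zinc finger genes Plagl1 and Peg3, both expressed from the paternal copy, also rose. Plagl1 (chromosome 10, 13060504 to 13131694, plus strand) encodes the factor Zac1, known to bind and regulate other imprinted genes, among them Igf2, Cdkn1c and Dlk1. WT libraries were at 115, 95.4 and 118 CPM, all under the 158, 150.4 and 162 CPM of the knockout libraries. Its mean went from 109 ± 12.3 to 157 ± 5.86 CPM (log2 fold change 0.52, SE 0.074; adjusted p 2.33e-04 by edgeR).

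Peg3 (chromosome 7, 6703892 to 6730431, minus strand) encodes a large zinc finger protein of growth and maternal behaviour. Its values were 59.5, 37.7 and 61.9 CPM among WT libraries and 90.6, 83.5 and 88.3 CPM among knockout libraries. WT replicate 2 was low for both Plagl1 and Peg3, and it is the library that lay apart in the principal components. The Peg3 mean rose from 53.0 ± 13.4 to 87.4 ± 3.63 CPM (log2 fold change 0.70, SE 0.13; adjusted p 0.00170 by edgeR). Without WT replicate 2 the log2 fold changes were 0.53 for Peg3 (adjusted p 3.99e-07 by edgeR) and 0.43 for Plagl1 (4.68e-07). The imprinted neighbour of Peg3, Zim1, had at most 24 counts in a library and did not pass (log2 fold change 1.13, SE 0.45; adjusted p 0.0844 by edgeR).

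Mest and Ndn were the most abundant of the 8 genes. Mest (chromosome 6, 30723547 to 30748465, plus strand) encodes a hydrolase-like protein linked to fetal growth and fat cell size, from the paternal copy. Libraries of the WT group had 138, 129 and 147 CPM and those of the knockout 204, 221 and 197 CPM, so the groups were well apart. The mean rose from 137.9 ± 8.91 to 207 ± 12.8 CPM, 1.50-fold, with a log2 fold change of 0.59 (SE 0.062) and an adjusted p of 2.37e-05 by edgeR, the lowest among the 8 genes. Exons of Copg2 on the opposite strand overlap 23.1% of the Mest exon bases, and Copg2 did not pass (log2 fold change -0.07, SE 0.049; adjusted p 0.307 by edgeR). An intron of Mest holds the gene of miR-335, shown because it lies within a transcript that changed; its seed, bases 2 to 8, is in capitals (chr6:30741314-30741336, plus strand, RefSeq, GRCm38.p6).
mmu-miR-335-5p: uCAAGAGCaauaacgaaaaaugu
The level of this miRNA is not analysed here.

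Ndn (chromosome 7, 62346569 to 62350262, plus strand) encodes necdin, a protein of postmitotic neurons that restrains cell division, expressed from the paternal copy. Libraries of the WT group had 145, 163 and 139.8 CPM and those of the knockout 169, 177 and 174 CPM. The highest WT library, replicate 2, came close to the lowest knockout library. The rise was the smallest of those called, from 149 ± 12.2 to 173 ± 4.08 CPM (log2 fold change 0.22, SE 0.061; adjusted p 0.0190 by edgeR). Leaving out any single library other than WT replicate 2 ended this call, with log2 fold changes of 0.17 to 0.23 and adjusted p-values of 0.0502 to 0.0831 by edgeR. Without WT replicate 2 it was 0.28 (adjusted p 2.61e-05 by edgeR).

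Levels of different genes were compared as CPM per kilobase of annotated exons. In WT the order was Ndn (40.4 ± 3.30), Mest (34.95 ± 2.26), Plagl1 (14.0 ± 1.57), Peg3 (3.98 ± 1.003), Dlk1 (2.17 ± 0.149), Cdkn1c (0.851 ± 0.127), Grb10 (0.373 ± 0.0205) and Igf2 (0.125 ± 0.0418; SD, n = 3 throughout). In WT Ndn stood above Mest, with ranges of 37.9 to 44.2 against 32.7 to 37.2 CPM per kilobase. In the knockout Mest stood above Ndn, at 49.8 to 56.1 against 45.7 to 47.9 CPM per kilobase. Cdkn1c and Dlk1 were apart in WT, at most 0.997 against at least 1.996 CPM per kilobase. In the knockout their ranges met, at 1.86 to 2.38 for Cdkn1c and 1.35 to 1.90 for Dlk1. These changes of order are descriptions without a test.

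**Figure D2:**
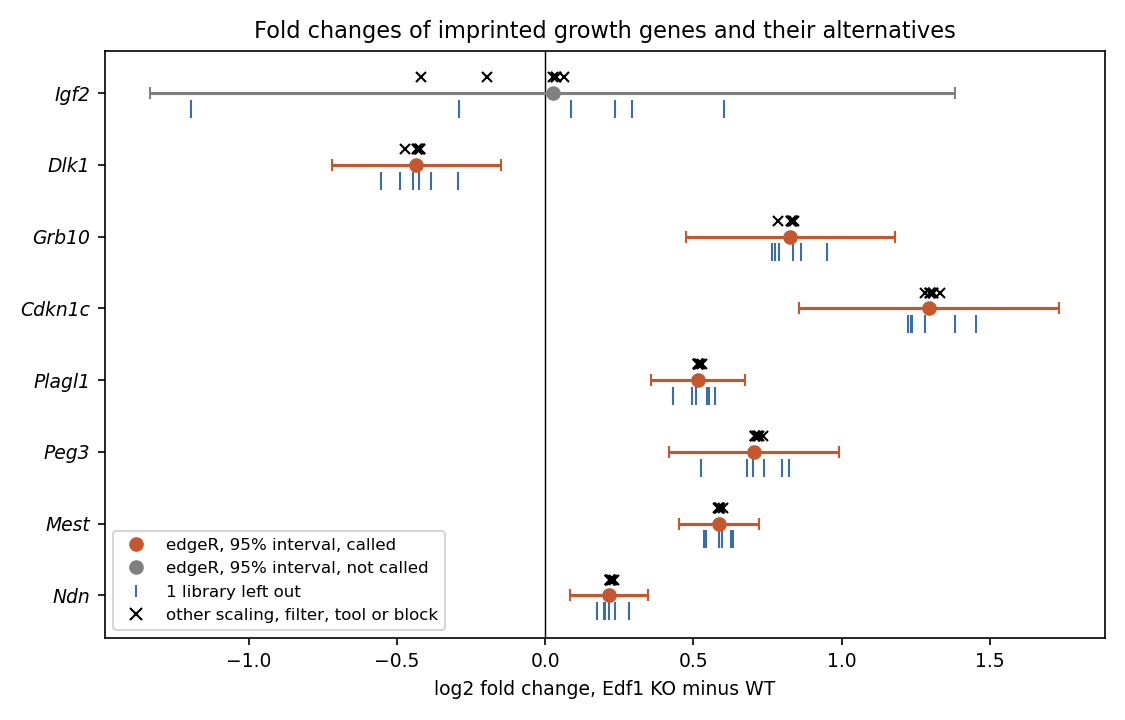
Log2 fold change (Edf1 KO minus WT) of each gene by edgeR with its 95% interval, with the estimates after leaving out 1 library each (blue ticks) and under other scalings, filters, tools or the replicate block (crosses). Cdkn1c, Grb10, Peg3, Mest, Plagl1 and Ndn stay above 0 and Dlk1 below 0, while Igf2 lies on both sides, from -1.19 to 0.60.

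Markers of other cell types were compared between the genotypes as well. Beside the counts below, 12.7% of all tested genes were called higher and 14.2% lower. Of the 10 tested markers of meningeal fibroblasts, 8 were called higher, and Pdgfra and Foxc1 did not pass (log2 fold changes -0.09 and 0.40). The 14 listed markers summed to 339.8 to 378 CPM in WT and 509 to 525 CPM in the knockout. Most of each sum was Ogn, at 248 to 270 CPM in WT and 323 to 373 CPM in the knockout. The meningeal genes Slc22a6 and Twist2 had 0 counts in all 6 libraries, which allows up to 0.233 CPM in the shallowest library (3 counts, counting error only). Of 12 microglia markers 11 were called lower, with sums of 2323 to 2508 CPM in WT and 1506 to 1562 CPM in the knockout. Neurons are another known source of Ndn, Peg3 and Grb10. Of 9 tested neuron markers 2 were called lower and 7 did not pass. Those called were Tubb3 and Dcx (log2 fold changes -0.81 and -1.61), Dcx with at most 20 counts in a library. The 13 listed summed to 255 to 332 CPM in WT and 277 to 292 CPM in the knockout. Most of each sum was Map2, which did not pass, at 210 to 287 CPM in WT and 233 to 250 CPM in the knockout. Of 5 tested mural and endothelial markers 3 were called higher (Kdr, Pdgfrb and Acta2, at 1.73, 0.42 and 0.30 on the log2 scale), and the 12 listed summed to 542 to 573 CPM in WT and 739 to 790 CPM in the knockout; Cldn5 and Abcc9 had at most 1 count in a library. The pituitary hormone gene Prl, with 0 counts in the WT libraries, reached 198, 175 and 131 counts in knockout replicates 1, 2 and 3; Fshb, another pituitary hormone gene, had 0 counts in all libraries. Of 4 tested pituitary markers 3 (Prl, Cga and Pomc) were called higher and 1 lower: the hormone gene Lhb, from 14.7 to 5.59 CPM (log2 fold change -1.37, SE 0.118; adjusted p 4.30e-06 by edgeR). The 14 pituitary markers summed to 17.5 to 20.6 CPM in WT and 29.2 to 35.5 CPM in the knockout. Of 5 tested choroid plexus markers 1 was called higher and 4 did not pass. The 8 listed summed to 101 to 128 CPM in WT and 116 to 138 CPM in the knockout. Among 8 tested markers of the oligodendrocyte lineage, 1 was called higher, 1 lower and 6 did not pass. The part of any of these cells in the values of the imprinted genes was not tested.

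The other genes of imprinted clusters did not move in a single direction. Of 48 listed, 42 had a row and 28 were tested. Of the 28, 7 were called higher, 4 lower and 17 did not pass, with a median log2 fold change of 0.06. Of all tested genes, 12.7% were called higher and 14.2% lower. Among the genes called, the rise was largest for Rasgrf1, a Ras activator expressed from the paternal copy, from 1.54 ± 0.457 to 3.23 ± 0.296 CPM (log2 fold change 1.0, SE 0.24; adjusted p 0.00792 by edgeR). Nnat, neuronatin, a small membrane protein of developing brain, fell from 258 ± 35.8 to 147 ± 4.57 CPM (log2 fold change -0.81, SE 0.081; adjusted p 1.40e-05 by edgeR). These 2 calls held in every alternative that gave a value. Slc22a2, a transporter gene beside Igf2r that was named after its values were seen, had the lowest log2 fold change, -1.57 (SE 0.27). Sgce, which shares a promoter region with Peg10, did not pass, at 167 ± 6.46 and 174 ± 2.08 CPM (log2 fold change 0.06; adjusted p 0.406 by edgeR). Phlda2, a placental growth restrainer next to Cdkn1c, had 0 counts in all 6 libraries.

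Other calls in that list were less firm. Peg10, a gene derived from a retrotransposon, was at 0.33 on the log2 scale (adjusted p 0.0358 by edgeR), which was 0.20 without WT replicate 2 and lost its call without any of the 3 knockout libraries (highest adjusted p 0.138 by edgeR). Ppp1r9a behaved alike, with 0.37 in all libraries, 0.20 without WT replicate 2, and no call without any single knockout library (highest adjusted p 0.152 by edgeR). Without knockout replicate 1, 2 or 3 the list had 2 genes called higher in each case. The number called lower was 2 when WT replicate 1 or either of knockout replicates 1 and 2 was left out, namely Nnat and Slc22a2 each time.

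The IGF pathway list held a ligand, receptors, adaptors and the RNA-binding Igf2bp genes. Of 13 tested genes 6, all receptors or adaptors, were called higher and 2 lower, beside 12.7% and 14.2% of all tested genes, with a median log2 fold change of 0.30. Irs1, the insulin receptor substrate that passes the signal on, rose from 43.6 ± 7.67 to 72.5 ± 2.56 CPM (log2 fold change 0.72, SE 0.099; adjusted p 1.74e-04 by edgeR). Igf1r, the receptor for both IGF ligands, rose from 48.5 ± 9.11 to 72.5 ± 1.96 CPM (log2 fold change 0.56, SE 0.10; adjusted p 0.00146 by edgeR). Irs2 and the adaptor gene Shc1 rose with log2 fold changes of 0.45 and 0.35. The ligand Igf1, unlike its receptor, fell from 54.1 ± 4.30 to 43.6 ± 0.915 CPM (log2 fold change -0.31, SE 0.067; adjusted p 0.00434 by edgeR). Microglia are a known source of Igf1, and their markers were lower in the same libraries, as given above; their part was not tested.

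Igf2r, which clears Igf2 from the cell surface and is expressed from the maternal copy in most tissues, rose from 78.9 ± 10.2 to 97.6 ± 3.22 CPM. Its log2 fold change was 0.30 (SE 0.080; adjusted p 0.0149 by edgeR), which did not pass without knockout replicate 1 (0.28, adjusted p 0.0709 by edgeR) or knockout replicate 2 (0.30, 0.0510). The insulin receptor Insr, at 0.34, lost its call without the same 2 libraries (0.33 and 0.32, adjusted p 0.0603 and 0.0583 by edgeR). Grb14, a relative of Grb10, moved the other way, at -0.38 (SE 0.12; adjusted p 0.0377 by edgeR). Leaving out any single library ended the Grb14 call (adjusted p 0.0616 to 0.126 by edgeR), which left Igf1 as the 1 IGF pathway gene called lower.

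**Figure D3:**
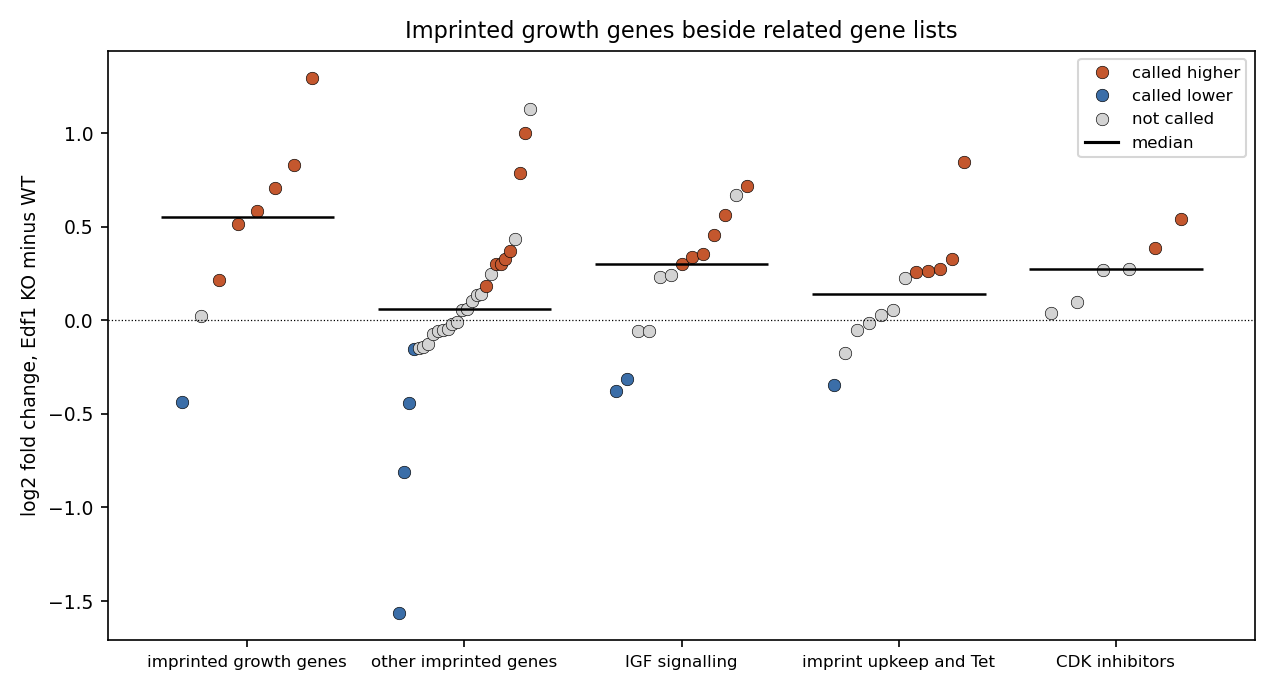
Log2 fold change (Edf1 KO minus WT, edgeR) of every tested gene in the imprinted growth genes and 4 related lists, coloured by call, with the median of each list as a line. The medians are 0.55, 0.06, 0.30, 0.14 and 0.27 from left to right.

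A list of genes that set or keep methylation at imprints, together with the Tet enzymes that oxidise it, was also compared. Of 12 tested, 5 (Dnmt1, Uhrf1, Zfp57, Zfp445 and Tet3) were called higher and 1 lower, beside 12.7% and 14.2% of all tested genes. Of these 5, 2 were still called without WT replicate 1 or either of knockout replicates 1 and 2, and 3 without knockout replicate 3. For Tet3, Uhrf1 and Zfp445 the adjusted p-values without knockout replicate 1 were 0.114, 0.123 and 0.137 by edgeR. Trim28, the corepressor that Zfp57 recruits to control regions, fell from 292 ± 7.83 to 229.7 ± 6.21 CPM (log2 fold change -0.35, SE 0.047; adjusted p 1.44e-04 by edgeR). Dnmt1, the methyltransferase that copies methylation at division, rose from 88.2 ± 3.40 to 105.7 ± 3.76 CPM (log2 fold change 0.26, SE 0.056; adjusted p 0.00450 by edgeR). Zfp57 itself was low, at 1.54, 2.72 and 1.84 CPM in WT libraries and 3.32, 3.84 and 3.36 CPM in knockout libraries. The log2 fold change of Zfp57 was 0.84 (SE 0.23; adjusted p 0.0164 by edgeR), and the call was lost without WT replicate 1 (0.65, adjusted p 0.0843 by edgeR) or knockout replicate 2 (0.77, 0.0684). Methylation is not analysed here.

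Cdkn1c was set beside the 6 other inhibitors of cyclin-dependent kinases, which are not imprinted. Of these, 2 were called higher, beside 12.7% of all tested genes. Cdkn1a, which encodes p21, rose from 73.6 ± 6.43 to 107 ± 4.27 CPM (log2 fold change 0.54, SE 0.069; adjusted p 9.22e-05 by edgeR). Cdkn2b rose from 19.9 ± 2.33 to 25.7 ± 1.05 CPM (0.38, SE 0.091; adjusted p 0.00786 by edgeR). Cdkn1b, which forms the Cip/Kip family with Cdkn1a and Cdkn1c, did not pass, at mean levels of 117 CPM (WT) and 120.5 CPM (knockout).

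The genes around the imprinted growth genes did not move in a single direction. The median log2 fold change of the neighbours had the sign of the gene itself for Dlk1 (-0.08), Plagl1 (0.20), Grb10 (0.31) and Ndn (0.10). Dlk1 and Ndn had only 2 tested neighbours each. Around Cdkn1c, Peg3 and Mest, which rose, the medians were slightly below 0 (-0.02, -0.03 and -0.06). Within 500 kb, 52 other genes were tested, of which 5 were called higher and 7 lower, 23.1% in all, beside 26.9% of all tested genes. Their median log2 fold change was -0.04. Around Cdkn1c, Nap1l4 and Cars were called lower (-0.15 and -0.30) and Tnfrsf23 higher (0.73), and around Mest the closest tested upstream gene, Cep41, was called lower at -0.68. Wdr25 near Dlk1 (-0.52) and Adat2 near Plagl1 (0.40) were called in the direction of the imprinted gene. These neighbours were named after their values were seen.

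**Figure D4:**
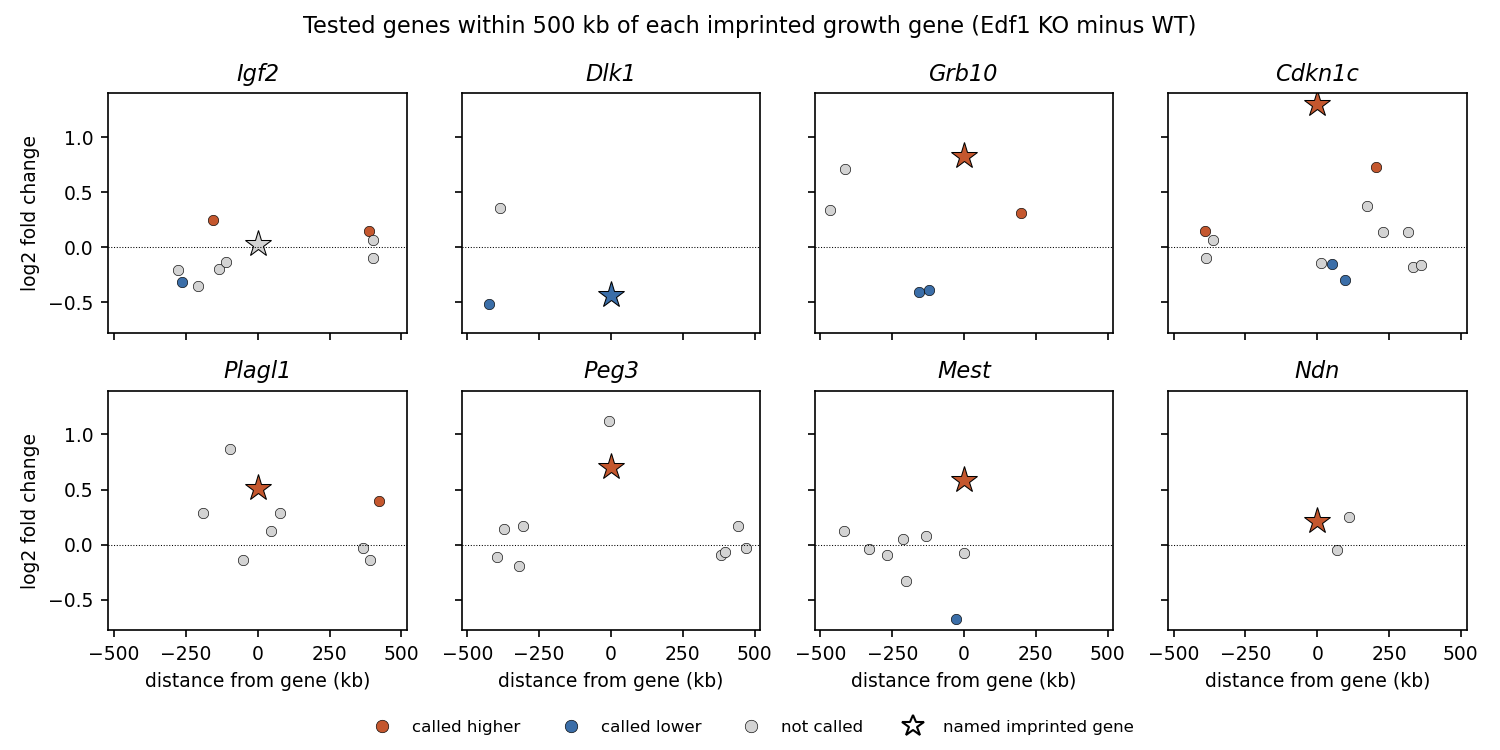
Log2 fold change (Edf1 KO minus WT, edgeR) of tested genes against their distance in kb from each imprinted growth gene (star at 0), by increasing chromosome position and coloured by call. Cdkn1c, Grb10, Mest and Peg3 stand above most of their neighbours, and the 52 neighbours centre near 0 with a median of -0.04.

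By expression over the 6 libraries, the genes most like Igf2 were Stard7, Bap1, Gpr137b, Wars and Cox11, with Pearson's r of 0.92 to 0.98 in log2 CPM among 11020 genes. Those most like Dlk1 were H1f2, Fuom, Cab39l, Mfsd9 and Zdhhc18, with r of 0.976 to 0.982 among 11019 genes. With 6 libraries and this many candidates, such values describe the ranking only. For Igf2 none of the 5 passed the test between genotypes, with adjusted p-values of 0.620 to 0.979 by edgeR. For Dlk1, Fuom and Mfsd9 were called lower (adjusted p 0.0308 and 0.0380 by edgeR) and the other 3 did not pass (0.0520 to 0.161).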

How the data were processed

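RNA was sequenced from 6 cultures with an mRNA library kit. The deposited table holds the authors' raw read counts per gene symbol, without normalization. Per the submitters' processing notes, FastQC 0.11.2, cutadapt 1.11, HISAT2 2.1.0 and the build GRCm38 were used; the counting program, its annotation and its strand setting are not given in the sources used here. Columns were matched to samples by genotype and replicate number, with 0 columns unused.

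In R 4.3.3, filterByExpr of edgeR 4.0.16 kept 14243 of 22851 genes. The quasi-likelihood test compared 3 knockout with 3 WT libraries, with TMM factors of 0.985 to 1.01, no covariate and Benjamini-Hochberg adjustment. SEs are the log2 fold change over the root of F, and CPM uses TMM-scaled totals. On simulated counts for 14243 genes with 200 changed 2-fold, the test recovered 93.2% of them. Of its calls, 7.23% were false (means of 10 draws), above the 0.05 of the threshold. Smaller changes were not simulated, and of the imprinted growth genes only Cdkn1c changed more than 2-fold. In the data 26.9% of tested genes were called, a larger share than was simulated. Same-numbered libraries deviated from group means with correlations of 0.0372 to 0.0693, so no pairing was assumed.

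The genes and lists were chosen with earlier results of these data known. Named are the 10 genes, up to 8 called genes per related list with a mean log2 CPM of at least 1, and stated neighbours. Positions and exon lengths come from GENCODE M21 (GRCm38). Alternatives were other scalings, filters on low counts, DESeq2 1.42.0, limma 3.58.1 (voom), a replicate block, an adjusted p of 0.01 and each library left out.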

Additional observations from a re-analysis of the deposited data

How the results depend on the processing

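Over 14 alternatives, 5 of the 7 calls among the imprinted growth genes held every time: Cdkn1c (1.23 to 1.45 on the log2 scale), Grb10 (0.77 to 0.95), Peg3 (0.53 to 0.82), Mest (0.54 to 0.63) and Plagl1 (0.43 to 0.57). The number called higher was 5 to 6, the smaller count being without Ndn. Dlk1 kept its direction, and the number called lower ran from 0 to 1 across the fits without 1 library and was 0 at an adjusted p of 0.01. At that stricter threshold, 2213 of all genes were called, against 3833, and the other imprinted genes had 1 higher and 2 lower and the IGF pathway 1 lower. The fits without 1 library gave 2658 to 4340 genes in all, 2 to 7 other imprinted genes higher and 2 to 4 lower, and 1 IGF pathway gene lower. The other imprinted genes called higher numbered 4 with a mean count of at least 50, where fewer genes were tested, and 4 by DESeq2, which also called 1 IGF pathway gene lower. Igf2 turned negative by limma voom (-0.42), with the replicate block (-0.20), without WT replicate 1 (-0.29) and without knockout replicate 2 (-1.19), and was positive in the other 4 fits without 1 library (up to 0.60); at a mean count of at least 50 it was not tested. Of the 23 called genes that the naming rule picked from the related lists, 11 held in every alternative that gave a value and 12 lost the call in at least 1, and these and Sgce kept their sign throughout; genes named after their values were seen were not followed singly. The cause was not tested. Libraries share only a number: the replicate block gave 4065 changed genes and changed 0 calls of the imprinted growth genes and the genes picked by the naming rule. Depth limits Igf2 most, at 6 to 29 counts per library.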
